A study of Mus musculus with 9 samples.

Results

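The cytosolic ribosomal protein genes of mouse kidney cells were followed through the early and the late phase after ischemia-reperfusion injury. Members were taken by symbol (Rpl or Rps followed by a number, Rplp0, Rplp1, Rplp2 and Rpsa) where the 9 libraries together held at least 1000 counts. This gave 81 of the 55385 gene entries in the deposited table, 48 of the large 60S subunit and 33 of the small 40S subunit. A further 8 symbols fell below the minimum, from 0 counts (Rpl10l, Rpl39l and Rps12l1) to 470 counts (Rpl6l), and the least abundant members were Rps4l with 3548, Rpl22l1 with 4460 and Rps27l with 9190 counts. All 81 members passed the filter on low counts. GENCODE M21 annotates 80 of them as protein-coding and Rps4l as a transcribed processed pseudogene. A further 311 entries named as ribosomal protein pseudogenes together held 0.00891% to 0.0182% of counts per library, and reads shared with such copies make the split between copies uncertain.

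Red fluorescent (tdTomato-positive) cells were sorted from cortex and outer medulla of male mice (9 to 12 weeks old, body weight 25 to 30 g), and their polyadenylated RNA was sequenced in 3 biological replicates per group. The d14 group came from Sox9IRES-CreERT2/+:R26RtdT/+ mice with bilateral injury that received tamoxifen on days 10 and 12, with cells collected on day 14. The 48 h group had the same genotype and injury, with tamoxifen given at injury and cells collected after 48 h. The uninjured group came from Slc34a1IRES-CreERT2/+:R26RtdT/+ mice that also received tamoxifen. All 3 groups carried the R26RtdT reporter in 1 copy. Sox9, a transcription factor, is switched on in damaged tubule epithelium, and Slc34a1 codes for the sodium-phosphate cotransporter of proximal tubule cells, so each label marks only cells in which that locus was active when tamoxifen was present. Cre allele and injury differ together between the injured and uninjured groups, and time and tamoxifen schedule differ together between d14 and 48 h, so their parts cannot be told apart. The study set cells that switched Sox9 on early and cells still expressing it late against uninjured tubule cells.

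Each ribosome carries a single copy of nearly every ribosomal protein, and growing cells spend much of their transcription on these genes. Their messages begin with a terminal oligopyrimidine (TOP) tract, a cytosine followed by an unbroken pyrimidine run, through which the kinase mTORC1 sets how strongly they are translated. RNA levels therefore do not give protein output. Free ribosomal proteins, above all the 5S particle of Rpl5, Rpl11 and 5S rRNA, bind the ubiquitin ligase Mdm2 and thereby connect ribosome assembly with the tumour suppressor p53. In the injured kidney, surviving tubule cells dedifferentiate and divide, which calls for new ribosomes.

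RefSeq start regions (GRCm38.p6) were at hand for 60 of the 81 members, with 71 start sites. A pyrimidine run of at least 8 bases that began with C lay between 20 bases before and 50 bases after 49 of the 71 starts (69.0%), against 20.0% of the 32851 starts of all genes in the same table. Within the 300 bases of each entry, on both strands, the motif CCGGAAG of ETS factors was found in 36.6% of member starts against 8.86% of all starts, AAGATGGC of YY1 in 11.3% against 2.75%, the TATA box TATAAA in 9.86% against 13.6% and the E-box CACGTG in 11.3% against 7.15%. These motifs and the run length were chosen after expression values had been seen, and a match describes the letters only. The following 6 windows run from 30 bases before to 30 bases from the annotated start and belong to members whose share of the family differed between groups. Capitals mark the longest pyrimidine run beginning with C in each window, or the first of equally long ones, as in Rps27l.
Rpl12, chr2:32961682-32961741, plus strand: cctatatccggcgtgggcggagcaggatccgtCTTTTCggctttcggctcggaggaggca
Rpsa, chr9:120127736-120127795, plus strand: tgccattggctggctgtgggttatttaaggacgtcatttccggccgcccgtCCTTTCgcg
Rps27, chr3:90213619-90213678, minus strand: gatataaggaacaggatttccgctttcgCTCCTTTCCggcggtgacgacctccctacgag
Rpl28, chr7:4792935-4792994, plus strand: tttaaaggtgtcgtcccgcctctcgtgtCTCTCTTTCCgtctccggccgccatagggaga
Rps25, chr9:44407684-44407743, plus strand: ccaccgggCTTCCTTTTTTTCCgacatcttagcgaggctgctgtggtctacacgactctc
Rps27l, chr9:66946056-66946115, plus strand: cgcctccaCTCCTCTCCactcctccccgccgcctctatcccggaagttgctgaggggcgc
The runs were 6 bases long in Rpl12 and Rpsa, 9 in Rps27 and Rps27l, 10 in Rpl28 and 14 in Rps25. The runs of Rps25 and Rps27l lay upstream of the annotated start.

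Libraries held 19239354 to 30414758 counts at d14, 8036054 to 23794029 at 48 h and 31585507 to 51631204 in uninjured cells. Genes encoded by mitochondrial DNA took 15.2% to 25.2% of counts at d14, 32.7% to 39.2% at 48 h and 25.1% to 29.2% in uninjured cells. TMM factors, which correct for differences in composition of any kind, were 1.21 to 1.48 at d14, 0.848 to 0.912 at 48 h and 0.846 to 0.902 in uninjured cells. The transcript CT010467.1 took 3.53% of counts in d14 replicate 2 and 5.06% in 48 h replicate 3, against 0.954% to 1.51% elsewhere. The labelled cell type of the uninjured group was checked on 12 proximal tubule markers, whose summed level in CPM (counts scaled by library size and TMM factor) was 4650 to 8010 CPM at d14, 8270 to 20400 CPM at 48 h and 35700 to 44000 CPM in uninjured cells, with none of these markers at 0 in all libraries. Summed markers of other nephron segments were highest at d14: 6 of the loop of Henle summed to 3040 to 5630, 841 to 1080 and 380 to 483 CPM at d14, 48 h and uninjured. Of these 6, 4 were called higher and 1 lower at d14 than in uninjured cells (25.1% and 20.7% of all genes). The 6 of the distal convoluted and connecting tubule summed to 2210 to 3740, 245 to 411 and 80.2 to 126 CPM. The 8 of principal cells summed to 487 to 706, 322 to 384 and 59.7 to 81.6 CPM, and 8 of intercalated cells to 355 to 433, 117 to 158 and 25.1 to 36.0 CPM. Neutrophil markers were highest at 48 h, and those of macrophages and dividing cells overlapped between d14 and 48 h: 8 of neutrophils summed to 3.43 to 6.06, 115 to 350.0 and 2.84 to 8.003 CPM in the same order of groups. The 11 of macrophages and monocytes summed to 64.4 to 148, 95.9 to 354 and 28.6 to 36.4 CPM, and 12 of the cell cycle to 95.6 to 155, 84.7 to 399 and 57.2 to 58.3 CPM. The 8 endothelial markers summed to 31.9 to 61.6, 80.5 to 683 and 74.4 to 147 CPM, 6 podocyte markers to 20.1 to 37.0, 33.9 to 146 and 35.7 to 58.5 CPM, and 6 erythroid markers to 14.8 to 122, 106 to 190.1 and 56.7 to 165 CPM, while fibroblasts and pericytes, T and NK cells and B cells stayed at or under 21.5 CPM in every library. These levels move with the groups, and their part in the results on ribosomal proteins was not tested.

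As a sum, ribosomal protein RNA stood higher at 48 h than in uninjured cells on each of 3 scales, whereas the place of d14 depended on the scale. The 81 members took 2.46%, 1.65% and 1.85% of all counts at d14, 1.79%, 1.79% and 1.97% at 48 h and 1.46%, 1.52% and 1.32% in uninjured cells. All libraries of both injured groups lay above all uninjured libraries, and d14 and 48 h overlapped. The widest 95% exact binomial interval of a share, in 48 h replicate 2, ran from 1.78% to 1.80%, so that counting error was far below the spread between libraries.
Leaving mitochondrially encoded genes out of the denominator gave 2.90%, 2.16% and 2.48% at d14, 2.94%, 2.95% and 2.92% at 48 h and 1.95%, 2.07% and 1.86% in uninjured cells. On that scale the groups did not overlap, with 48 h highest and uninjured cells lowest. After TMM scaling the sum was 16630, 13480 and 15330 CPM at d14, 21090, 20690 and 21550 CPM at 48 h and 16340, 16800 and 15560 CPM in uninjured cells. The 48 h libraries then lay above all others, d14 and uninjured libraries overlapped, and the ratio of group means was 1.30 for 48 h over uninjured, 0.933 for d14 over uninjured and 0.718 for d14 over 48 h. By subunit, the 48 h over uninjured ratio was 1.28 for the Rpl and 1.33 for the Rps sum. The Rpl sum was 1.56 to 1.589 times the Rps sum at d14, 1.48 to 1.559 times at 48 h and 1.567 to 1.585 times in uninjured cells. All 48 h libraries thus had the lowest ratios, but 48 h replicate 2 (1.559) and d14 replicate 2 (1.56) were almost equal. The difference was not tested. In sorted bulk RNA, fewer cells of a type and less RNA per cell cannot be told apart.

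**Figure D1:**
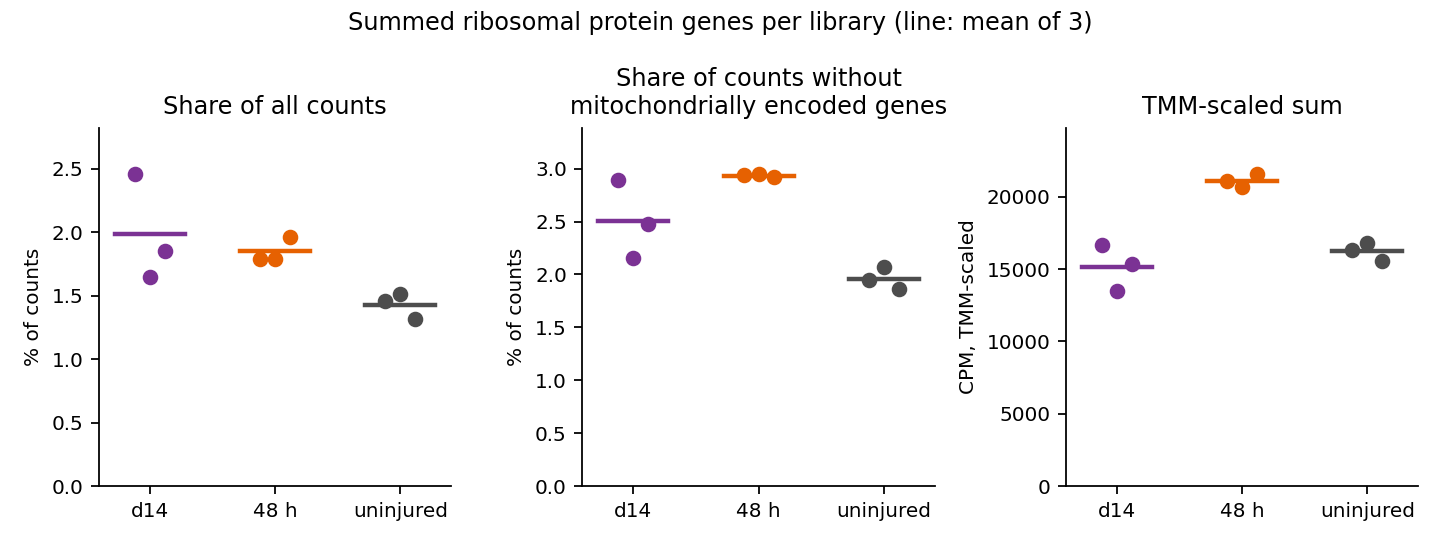
Summed ribosomal protein genes per library at d14, 48 h and in uninjured cells (points, with the mean of 3 as a line), as a percentage of all counts, as a percentage of counts outside mitochondrially encoded genes and as TMM-scaled CPM. The 48 h libraries sit at 20690 to 21550 CPM on the TMM scale, above d14 (13480 to 16630 CPM), while both groups overlap as a share of all counts.

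At 48 h against uninjured cells, 49 of 81 members were higher and 0 lower at an adjusted p under 0.05 in edgeR's quasi-likelihood test with Benjamini-Hochberg adjustment, against 17.4% higher and 11.7% lower of the 15519 genes tested. At an unadjusted p under 0.05 the number lower was also 0, and DESeq2 and voom called 0 lower. The called members were 29 of 48 of the large and 20 of 33 of the small subunit, and the median log2 fold change over all members was 0.38, a ratio of 1.30, against 0.020 over all genes. In 70 members all 3 libraries at 48 h lay above all uninjured libraries, and in 0 below them, compared with 21.5% and 20.8% of all genes.
The count of 49 fell to 22, 30 and 20 when uninjured replicate 1, 2 or 3 was left out and to 25 without 48 h replicate 3. The share of all genes called higher fell as well, from 17.4% to 12.3%, 13% and 12.6%, and to 12.8%. The median of the members stayed between 0.33 and 0.39 with any library left out.

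At d14 against 48 h, 68 members were lower and 1, Rps4l, was higher, against 16.3% lower and 16.8% higher of all genes. The median was -0.47, a ratio of 0.721, against 0.055 over all genes, and 73 members had all d14 libraries below all 48 h libraries and 1 had them above (20.6% and 26.7% of all genes). The lower members were 40 of the large and 28 of the small subunit. Without d14 replicate 2 the count was 37 (11.9% of all genes lower).
At d14 against uninjured cells, 10 members were lower and 2 were higher (Rps4l and Rpl12), against 20.7% lower and 25.1% higher of all genes. The lower ones were Rps27l, Rps25, Rpl28, Rpl10, Rpl35a, Rpl7l1, Rps2, Rps29, Rpl29 and Rpl37a. The median over members was -0.092 against 0.060 over all genes, with 22 members separated downwards and 5 upwards (28.9% and 34.4% of all genes). The count lower was 6 without d14 replicate 2 or uninjured replicate 1 (16.9% and 16.1% of all genes) and 5 without d14 replicate 3 (17.5%). The 3 comparisons share libraries, so their counts are not independent.

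These counts depended on how libraries were put on a common scale. With library totals alone, 58 members were higher and 0 lower at d14 than in uninjured cells (47.1% and 9.14% of all genes), 22 were higher and 0 lower at 48 h than in uninjured cells (16.0% and 10.5%), and 2 were higher and 1 lower at d14 than at 48 h (43.8% and 6.02%). The 1 member lower at d14 than at 48 h was Rps27l. Other members that TMM called lower at d14 than at 48 h, among them Rpl12, Rpl38, Rpsa, Rps2 and Rps23, were not called lower on this scale. On it 67 of 81 members had a positive log2 fold change of d14 over 48 h, Rpl12 among them. The median of members at 48 h against uninjured cells was 0.37 on this scale, against 0.38 under TMM, although fewer members passed. With totals outside mitochondrially encoded genes the counts were 47 higher and 1 lower (43.4% and 10.8% of all genes), 71 and 0 (23.0% and 5.99%), and 1 and 11 (28% and 10.1%) in the same order of comparisons. With the 78 genes of the mitochondrial ribosome as the scale they were 59 and 1 (45.2% and 10.4%), 50 and 0 (17.4% and 10.8%), and 2 and 3 (40.6% and 7.05%). Median-of-ratios factors, upper-quartile factors and TMM factors computed without the members and mitochondrially encoded genes gave splits near those of TMM in the comparisons that involve 48 h. At d14 against uninjured cells they gave, in that order, 2, 3 and 1 higher and 11, 7 and 14 lower. Of all genes, 24.8%, 26.4% and 23.6% were then higher and 21.2%, 19.8% and 23% lower.
A change of scale shifts all genes by nearly the same amount, so the position of the family among all genes moved little. Library totals put the median of all genes at 0.63 for d14 over uninjured, 0.011 for 48 h over uninjured and 0.63 for d14 over 48 h. Measured from the median of all genes, the median member lay at 0.36 for 48 h over uninjured under each of 7 scales, at -0.53 to -0.52 for d14 over 48 h, and at -0.15 to -0.14 for d14 over uninjured. Under these scales 78 of 81 members lay above the median of all genes at 48 h against uninjured cells, 80 of 81 below it at d14 against 48 h, and 67 or 68 below it at d14 against uninjured cells. Without d14 replicate 2 the last distance was -0.067.

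**Figure D2:**
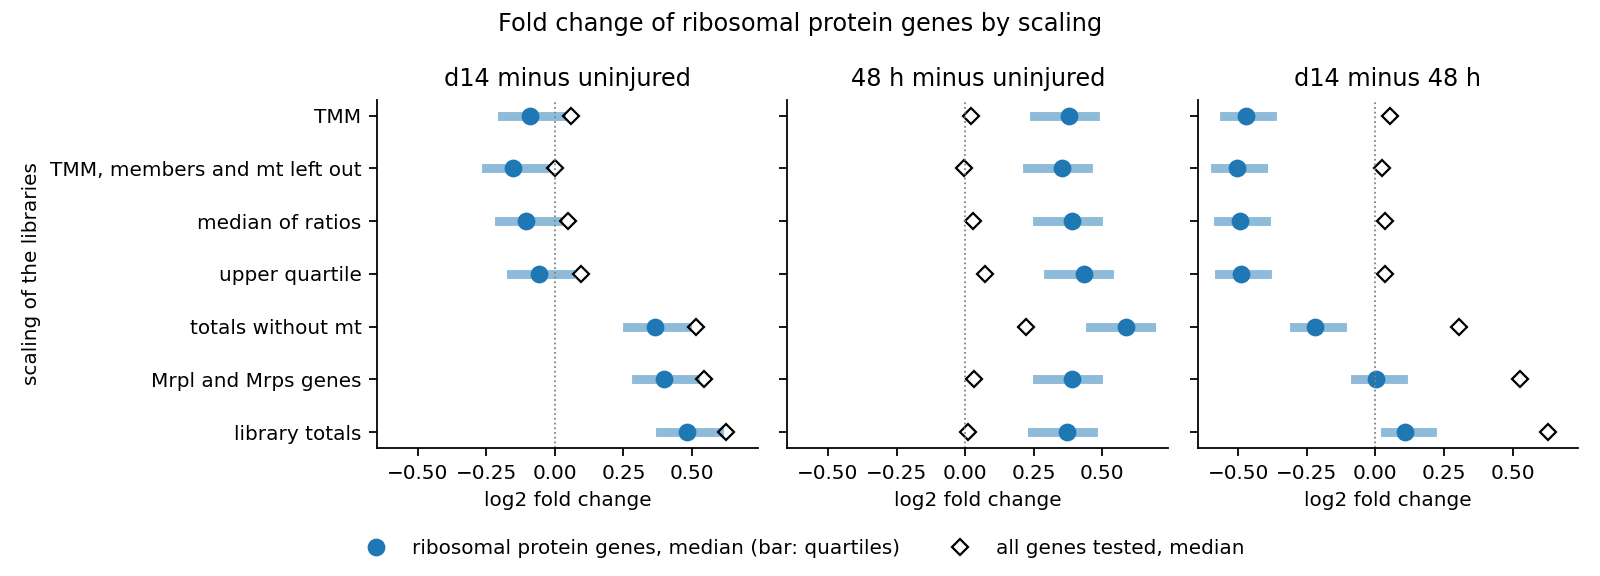
Median log2 fold change of the ribosomal protein genes (circle, with quartiles as a bar) and of all genes tested (diamond) under 7 scales of the libraries, in the 3 comparisons. Circle and diamond shift together along the axis: the members lie 0.36 above all genes at 48 h against uninjured cells and at -0.53 to -0.52 from them at d14 against 48 h.

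Within the large subunit, the stalk recruits the elongation factors. The stalk scaffold Rplp0 had 642.5, 494 and 548 CPM at d14, 764, 777.5 and 792 CPM at 48 h and 520.5, 574 and 539 CPM in uninjured cells. The acidic stalk protein Rplp1, the member with the most counts per kilobase of transcript, had 387, 316 and 358 CPM at d14, 588, 511 and 524 CPM at 48 h and 379, 383.5 and 362 CPM in uninjured cells. Its partner Rplp2 had 195, 163 and 182 CPM at d14, 268, 226 and 261 CPM at 48 h and 192, 204 and 179 CPM in uninjured cells. In all of these genes the 48 h libraries lay above the rest, and d14 and uninjured libraries overlapped. For 48 h over uninjured, the log2 fold change was 0.51 ± 0.12 (SE; adjusted p = 0.0108) for Rplp0, 0.53 ± 0.12 (SE; adjusted p = 0.00677) for Rplp1 and 0.39 ± 0.12 (SE; adjusted p = 0.0284) for Rplp2. The call of Rplp1 held under all 22 alternatives, that of Rplp0 was lost without uninjured replicate 1, and that of Rplp2 without 48 h replicate 1 or 3 or uninjured replicate 1 or 3.
Rpl12, which forms the base of the stalk, had the largest 48 h increase of the family. It had 198.5, 140.4 and 163 CPM at d14, 228, 251 and 259.9 CPM at 48 h and 129, 136 and 119.7 CPM in uninjured cells. The 3 groups did not overlap, with 48 h highest and uninjured lowest. Its log2 fold change was 0.94 ± 0.14 (SE; adjusted p = 0.000541) for 48 h over uninjured, 0.38 ± 0.14 (SE; adjusted p = 0.0382) for d14 over uninjured and -0.56 ± 0.14 (SE; adjusted p = 0.00973) for d14 over 48 h. The 48 h increase was called under all 22 alternatives, the d14 increase under 14 of 22 (not without d14 replicate 1 or 3 or any 1 of the uninjured libraries). The d14 call was also lost with a replicate block, without the filter on low counts and with TMM factors computed without the members and mitochondrially encoded genes.

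Rpl5 and Rpl11 are the proteins of the 5S particle. Rpl5 had 293, 221 and 267.5 CPM at d14, 291, 311 and 363 CPM at 48 h and 329, 321.5 and 306.5 CPM in uninjured cells. Rpl11 had 257, 209.5 and 240.5 CPM at d14, 299, 315 and 312 CPM at 48 h and 249, 240.2 and 231 CPM in uninjured cells. For Rpl5 the d14 libraries lay below the uninjured ones and the 48 h libraries overlapped both, whereas for Rpl11 all 48 h libraries lay above all uninjured ones. The log2 fold change of 48 h over uninjured was 0.013 ± 0.13 (SE; adjusted p = 0.954) for Rpl5 and 0.36 ± 0.11 (SE; adjusted p = 0.0303) for Rpl11, whose call was kept in only 3 of 9 fits that left out a library (not without d14 replicate 3, 48 h replicate 2 or 3, or any 1 of the uninjured libraries). Rpl3, which reaches towards the peptidyl transferase centre, had 365, 297.5 and 337 CPM at d14, 333, 442.5 and 409 CPM at 48 h and 277, 295 and 288.5 CPM in uninjured cells. Its d14 libraries all lay above the uninjured ones, but the log2 fold change of 0.22 ± 0.13 (SE; adjusted p = 0.207) did not pass.
Of the proteins that line the peptide exit tunnel, Rpl39 had 56.0, 54.1 and 55.2 CPM at d14, 80.9, 76.2 and 91.9 CPM at 48 h and 53.6, 49.4 and 52.1 CPM in uninjured cells. It was 0.68 ± 0.10 (SE; adjusted p = 0.0007) higher on the log2 scale at 48 h than in uninjured cells, under all 22 alternatives, and its d14 libraries lay just above the uninjured ones. Rpl4 had 456, 364 and 408 CPM at d14, 555, 582 and 566 CPM at 48 h and 474, 472 and 431 CPM in uninjured cells. Rpl17 had 190.4, 147 and 191 CPM at d14, 222, 211 and 242 CPM at 48 h and 197, 199 and 192.5 CPM in uninjured cells. In both the 48 h libraries were above all others.
Rpl10, which is added to the 60S subunit in the cytoplasm shortly before it can translate, had 242, 197 and 215 CPM at d14, 316, 279 and 305 CPM at 48 h and 314, 319 and 296 CPM in uninjured cells. Its d14 libraries lay below all others and its 48 h and uninjured libraries overlapped. Its log2 fold change was -0.51 ± 0.12 (SE; adjusted p = 0.00375) for d14 over uninjured and -0.046 ± 0.11 (SE; adjusted p = 0.802) for 48 h over uninjured. Rpl24, another late joiner, had 154, 133 and 149.9 CPM at d14, 198, 203 and 208 CPM at 48 h and 167.5, 168 and 131 CPM in uninjured cells. Its 48 h libraries were above all others.
Rpl28, a 60S protein that budding yeast lacks, had 259.5, 214.5 and 248 CPM at d14, 366, 314 and 343 CPM at 48 h and 328, 391 and 329 CPM in uninjured cells. Its d14 libraries lay below the rest, with a log2 fold change of -0.54 ± 0.13 (SE; adjusted p = 0.00464) for d14 over uninjured, against -0.035 ± 0.13 (SE; adjusted p = 0.869) for 48 h over uninjured. Rpl35a, mutated in some patients with the inherited red cell failure Diamond-Blackfan anemia, had 105, 94.0 and 97.7 CPM at d14, 148, 139 and 143 CPM at 48 h and 137, 132 and 119.9 CPM in uninjured cells. Its d14 libraries were again the lowest, with -0.39 ± 0.10 (SE; adjusted p = 0.00912) for d14 over uninjured on the log2 scale. The d14 decreases of Rpl10, Rpl28 and Rpl35a held in all 9 fits that left out a library, but none of them was called under library totals, totals outside mitochondrially encoded genes or the mitochondrial ribosomal scale.
Rpl38, needed in mouse embryos for the translation of Hox messages, had 57.9, 55.9 and 56.5 CPM at d14, 99.5, 89.5 and 105 CPM at 48 h and 71.8, 64.0 and 61.6 CPM in uninjured cells. Its 48 h libraries lay above the rest and its d14 libraries below the uninjured ones. On the log2 scale its fold change was 0.57 ± 0.11 (SE; adjusted p = 0.00224) for 48 h over uninjured and -0.79 ± 0.11 (SE; adjusted p = 0.000331) for d14 over 48 h.

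In the small subunit, Rpsa, a protein of the 40S subunit that has also been described as a laminin receptor, followed Rpl12 in the size of its 48 h increase. It had 436, 351 and 393 CPM at d14, 756.5, 659 and 680.3 CPM at 48 h and 428, 433 and 406.5 CPM in uninjured cells. The 48 h libraries lay far above the rest, and d14 and uninjured libraries overlapped. Log2 fold changes were 0.72 ± 0.12 (SE; adjusted p = 0.00127) for 48 h over uninjured, -0.83 ± 0.12 (SE; adjusted p = 0.000579) for d14 over 48 h and -0.10 ± 0.12 (SE; adjusted p = 0.525) for d14 over uninjured.
Rps12 had 188, 154.5 and 156.5 CPM at d14, 299, 257 and 276 CPM at 48 h and 172, 175 and 169 CPM in uninjured cells. Rps24, mutated in some patients with Diamond-Blackfan anemia, had 231.5, 203 and 220.1 CPM at d14, 322, 332 and 313.5 CPM at 48 h and 206, 213 and 205 CPM in uninjured cells. Both were higher in every 48 h library than in any other. Their log2 fold change of 48 h over uninjured was 0.69 ± 0.12 (SE; adjusted p = 0.00129) and 0.63 ± 0.10 (SE; adjusted p = 0.00102), called like that of Rpsa under all 22 alternatives. Rps19, the gene most often mutated in that anemia, had 112, 88.0 and 96.8 CPM at d14, 152, 151 and 162 CPM at 48 h and 121, 118 and 99.9 CPM in uninjured cells. Its log2 fold change of 48 h over uninjured was 0.45 ± 0.12 (SE; adjusted p = 0.0182). Among the fits that left out 1 library, this call was lost without 48 h replicate 3 or uninjured replicate 3.
Rps2 and Rps3 sit at the channel where the messenger enters. Rps2 had 530.4, 449.7 and 483 CPM at d14, 843, 829 and 812 CPM at 48 h and 644, 640.5 and 595 CPM in uninjured cells. Rps3 had 272.5, 206 and 233 CPM at d14, 304, 316 and 317 CPM at 48 h and 240.5, 249.9 and 237 CPM in uninjured cells. All 48 h libraries were above all others in both. Rps2 was lower at d14, with a log2 fold change of -0.76 ± 0.11 (SE; adjusted p = 0.000649) for d14 over 48 h and -0.36 ± 0.11 (SE; adjusted p = 0.0226) for d14 over uninjured. The decrease against 48 h held in all 9 fits that left out a library but was not called under library totals. That against uninjured cells was lost without d14 replicate 2 or 3 or uninjured replicate 1. It turned positive, without a call, under library totals, totals outside mitochondrially encoded genes and the mitochondrial ribosomal scale.
Rps23, of the decoding centre, had 199.6, 156 and 181 CPM at d14, 290.3, 313 and 314 CPM at 48 h and 218, 214 and 228.5 CPM in uninjured cells. Its log2 fold change was -0.77 ± 0.12 (SE; adjusted p = 0.000672) for d14 over 48 h. Rps14, of the 40S platform, had 141, 118 and 125 CPM at d14, 154.5, 171 and 159 CPM at 48 h and 131, 140.3 and 119 CPM in uninjured cells. Rps15, of the 40S head, had 212.5, 175 and 208 CPM at d14, 303, 297.5 and 273 CPM at 48 h and 213, 232 and 208 CPM in uninjured cells. All of these had their highest values in the 48 h libraries. Rps6, the protein that S6 kinase phosphorylates downstream of mTORC1, had 297, 229 and 275 CPM at d14, 344, 340.3 and 355 CPM at 48 h and 270.5, 271 and 248 CPM in uninjured cells. Rps27a, made as a fusion with ubiquitin, had 134, 109 and 121 CPM at d14, 181, 180.2 and 186 CPM at 48 h and 148, 145 and 137 CPM in uninjured cells. For both, every 48 h library was above every other library. The log2 fold change of 48 h over uninjured was 0.40 ± 0.12 (SE; adjusted p = 0.0285) for Rps6 and 0.35 ± 0.11 (SE; adjusted p = 0.0315) for Rps27a. Among the fits that left out 1 library, both calls were lost without 48 h replicate 3 or any 1 of the uninjured libraries. That of Rps27a was also lost without d14 replicate 3 or 48 h replicate 1.
Rps25, which many viral internal ribosome entry sites require, was among the members that fell most at d14. It had 128, 111 and 131 CPM at d14, 203, 195 and 193 CPM at 48 h and 184, 177 and 177 CPM in uninjured cells. The groups did not overlap, with d14 lowest and 48 h highest, and the log2 fold change of d14 over uninjured was -0.54 ± 0.10 (SE; adjusted p = 0.00132). This call held in all 9 fits that left out a library, but not under library totals, totals outside mitochondrially encoded genes or the mitochondrial ribosomal scale. Rps29 had 155, 149.6 and 159.5 CPM at d14, 217.5, 177 and 235 CPM at 48 h and 199.6, 213 and 179 CPM in uninjured cells. The 48 h and uninjured libraries overlapped, with a log2 fold change of 0.093 ± 0.13 (SE; adjusted p = 0.627) for 48 h over uninjured. Rps9 had 327, 269 and 304 CPM at d14, 344, 349 and 354 CPM at 48 h and 263, 253 and 239 CPM in uninjured cells. Here d14 lay between the other groups without overlap, and the log2 fold change of 0.25 ± 0.11 (SE; adjusted p = 0.0842) for d14 over uninjured did not pass.
Levels per kilobase of principal transcript, averaged over the 9 libraries, ran from 14.7 CPM for Rps4l to 848 CPM for Rplp1. Rps2, Rps29 and Rps15 were also among the highest, with 592, 480.2 and 472 CPM.

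Differences within the family do not depend on how libraries are scaled, since each member can be set against the summed members of its own library. The makeup of the family was similar in all groups: for 61 of 81 members the mean share of the family's counts stayed within 1.2-fold between the highest and the lowest group, and the median ratio was 1.12. In the quasi-likelihood test on this scale, 1 member was higher and 3 lower at 48 h than in uninjured cells (12.5% and 31.7% of all genes), 3 higher and 4 lower at d14 than in uninjured cells (27.1% and 16.0%), and 2 higher and 2 lower at d14 than at 48 h (39.7% and 6.09%).
Rpl12 took 1.19%, 1.04% and 1.06% of the family's counts at d14, 1.08%, 1.21% and 1.21% at 48 h and 0.787%, 0.812% and 0.769% in uninjured cells. Both injured groups lay above the uninjured group, by 0.48 ± 0.13 (SE; adjusted p = 0.00937) at d14 and 0.56 ± 0.13 (SE; adjusted p = 0.00448) at 48 h on the log2 scale, and both calls held under all 13 alternatives. Rpl10 took 1.45%, 1.46% and 1.40% at d14, 1.50%, 1.35% and 1.41% at 48 h and 1.92%, 1.90% and 1.90% in uninjured cells. Rpl28 took 1.56%, 1.59% and 1.62% at d14, 1.74%, 1.52% and 1.59% at 48 h and 2.00%, 2.33% and 2.11% in uninjured cells. Both were thus a smaller part of the family after injury. For Rpl10 the log2 difference was -0.41 ± 0.12 (SE; adjusted p = 0.0193) at d14 and -0.43 ± 0.12 (SE; adjusted p = 0.016) at 48 h against uninjured cells, and for Rpl28 it was -0.43 ± 0.13 (SE; adjusted p = 0.019) and -0.41 ± 0.13 (SE; adjusted p = 0.0248). Each of these 4 calls was lost under 2 to 6 of the 13 alternatives, among them the fit without d14 replicate 2 and 48 h replicate 3 together. Single libraries whose removal ended the call were d14 replicate 3 and uninjured replicates 1 and 3 for Rpl10 at d14, uninjured replicate 1 for Rpl10 at 48 h, d14 replicate 3 and uninjured replicate 2 for Rpl28 at d14, and replicates 2 and 3 of both 48 h and uninjured cells for Rpl28 at 48 h.
Rps25 had a log2 difference of -0.44 ± 0.12 (SE; adjusted p = 0.0116) between d14 and uninjured cells, a call lost only without uninjured replicate 1. For Rps9 it was 0.35 ± 0.12 (SE; adjusted p = 0.0362) at d14 and for Rpl5 -0.37 ± 0.13 (SE; adjusted p = 0.0415) at 48 h, both against uninjured cells. These were called under 6 and 5 of 13 alternatives, and any 1 of the uninjured libraries could end either call, as could d14 replicate 2 or 3 for Rps9 and d14 replicate 3 or 48 h replicate 1 or 2 for Rpl5. Between d14 and 48 h the log2 difference was -0.35 ± 0.13 (SE; adjusted p = 0.0487) for Rpsa and 0.33 ± 0.13 (SE; adjusted p = 0.0489) for Rps27, each called under 1 of 13 alternatives. Leaving out any library ended the call of Rpsa, and any but d14 replicate 1 that of Rps27.

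**Figure D3:**
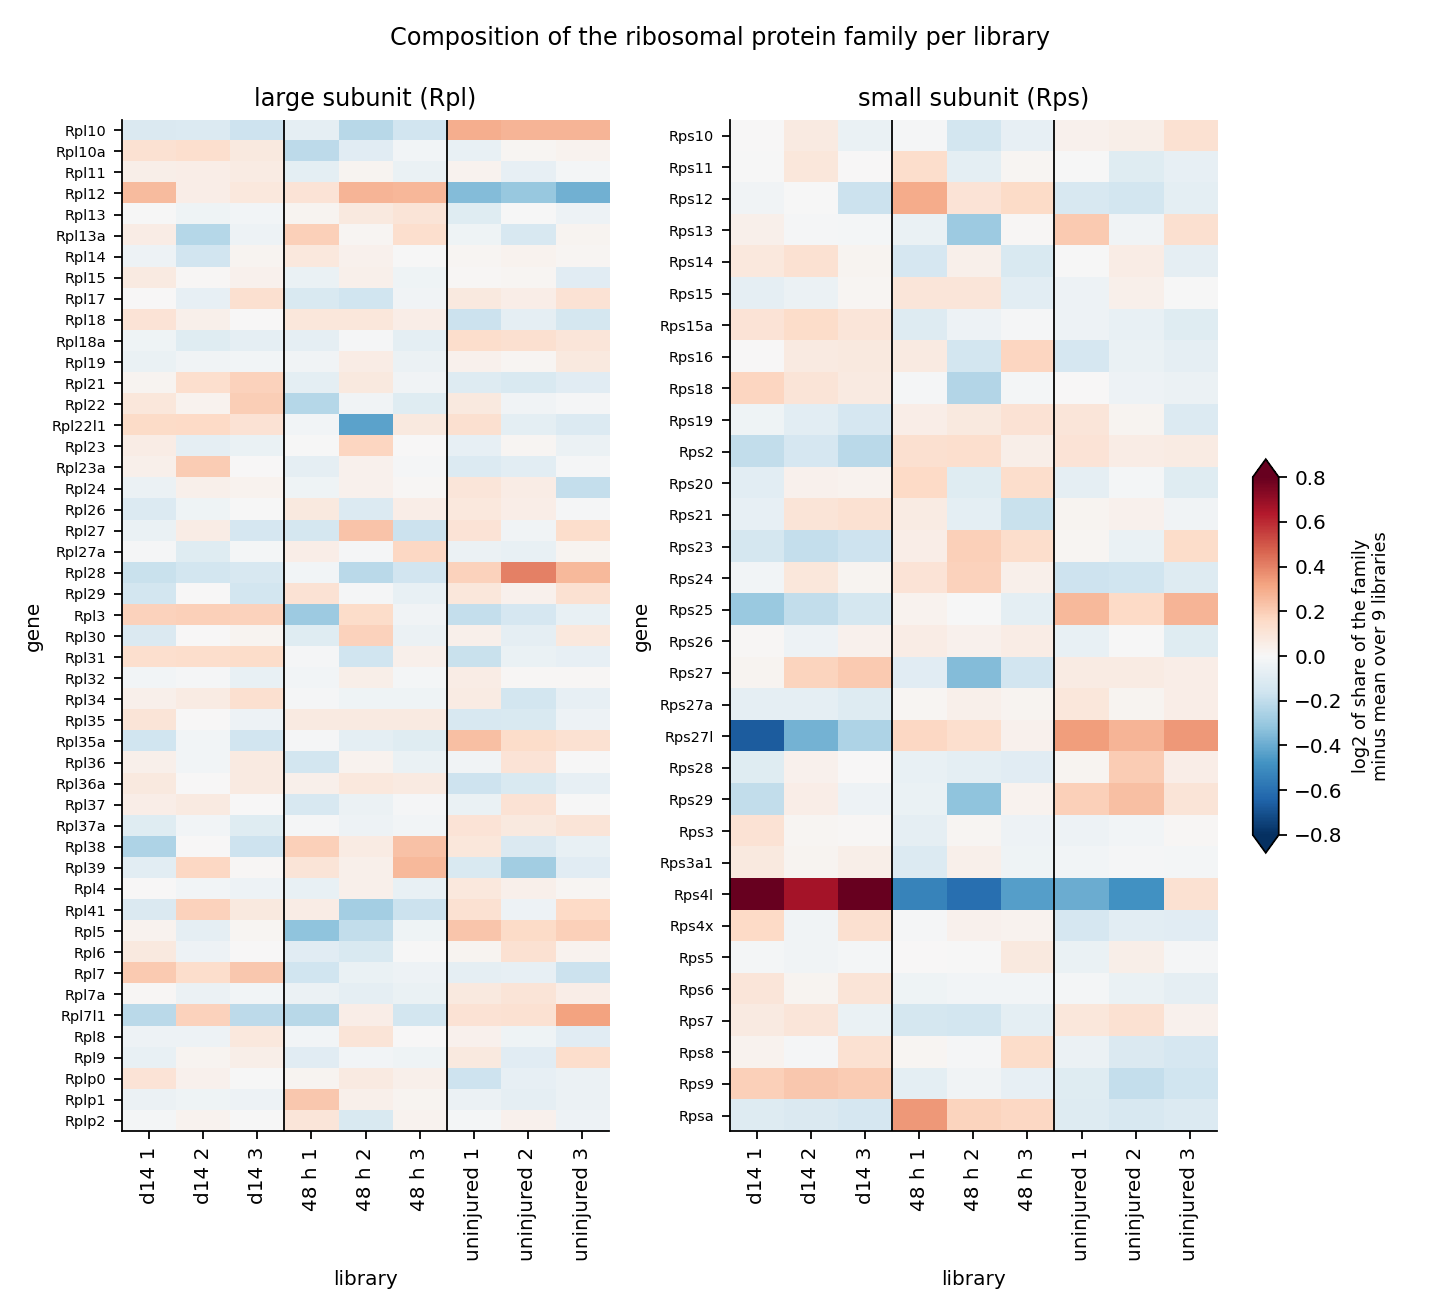
Share of 80 of the members in the family's counts, per library, on a log2 scale relative to its mean over the 9 libraries, with large-subunit genes on the left and small-subunit genes on the right and libraries ordered d14, 48 h, uninjured. Most members are pale in all libraries (61 of 81 stay within 1.2-fold between group means), and Rps4l, Rps27l, Rpl12, Rpl10 and Rpl28 stand out by group.

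The largest shifts within the family were those of the paralogs Rps4l and Rps27l. Rps27l, a paralog of Rps27 and a known target of p53 in human cells, had 21.9, 21.7 and 27.0 CPM at d14, 49.4, 47.4 and 46.1 CPM at 48 h and 43.1, 42.3 and 41.3 CPM in uninjured cells. Its d14 libraries lay below all others, and the 48 h libraries lay above the uninjured ones. The log2 fold change was -0.84 ± 0.11 (SE; adjusted p = 0.000111) for d14 over uninjured, -1.02 ± 0.12 (SE; adjusted p = 0.000117) for d14 over 48 h and 0.17 ± 0.11 (SE; adjusted p = 0.279) for 48 h over uninjured. Relative to the family it was -0.74 ± 0.13 (SE; adjusted p = 0.000873) for d14 over uninjured and -0.53 ± 0.14 (SE; adjusted p = 0.00766) for d14 over 48 h, called under all 13 alternatives. The decrease against 48 h was called under all 22 scalings and settings, and that against uninjured cells under 21, the exception being library totals.
The canonical partner Rps27 had 118, 107 and 124 CPM at d14, 138, 114 and 135 CPM at 48 h and 119.6, 123 and 113 CPM in uninjured cells. All 3 groups overlapped, and the log2 fold change of -0.15 ± 0.11 (SE; adjusted p = 0.33) for d14 over 48 h did not pass.
Of 10 genes of the p53 axis, 6 were higher and 0 lower at d14 than in uninjured cells, 4 higher and 1 lower at 48 h than in uninjured cells, and 3 higher and 1 lower at d14 than at 48 h. Among all genes 25.1% and 20.7%, 17.4% and 11.7%, and 16.8% and 16.3% were higher and lower in these comparisons. The cell cycle inhibitor Cdkn1a had 26.0, 20.4 and 19.9 CPM at d14, 16.8, 51.2 and 16.0 CPM at 48 h and 2.71, 3.62 and 3.35 CPM in uninjured cells. The proapoptotic Bbc3 had 6.09, 7.32 and 6.37 CPM at d14, 1.40, 2.44 and 2.03 CPM at 48 h and 1.11, 0.702 and 1.34 CPM in uninjured cells. Cdkn1a was called higher than in uninjured cells in both injured groups, and Bbc3 at d14.

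Rps4l, a processed copy of Rps4x, went the other way. It had 23.1, 16.3 and 20.4 CPM at d14, 11.1, 10.3 and 12.1 CPM at 48 h and 9.45, 9.13 and 12.9 CPM in uninjured cells. The d14 libraries lay above all others and the remaining groups overlapped. The log2 fold change was 0.93 ± 0.19 (SE; adjusted p = 0.00219) for d14 over uninjured, 0.83 ± 0.20 (SE; adjusted p = 0.00819) for d14 over 48 h and 0.10 ± 0.20 (SE; adjusted p = 0.761) for 48 h over uninjured, with both d14 calls kept under all 22 alternatives. Relative to the family the d14 differences were 1.01 ± 0.19 (SE; adjusted p = 0.00112) against uninjured cells and 1.30 ± 0.20 (SE; adjusted p = 0.000346) against 48 h, called under all 13 alternatives. Rps4x had 291, 208 and 263 CPM at d14, 328, 332 and 345 CPM at 48 h and 233, 248 and 229 CPM in uninjured cells. Its d14 and uninjured libraries overlapped. The authors' counting divides reads that match both copies between them, which leaves the split between Rps4l and Rps4x uncertain.
Rpl22l1, a paralog of Rpl22, had 19.1, 15.5 and 17.1 CPM at d14, 21.4, 15.8 and 23.4 CPM at 48 h and 18.4, 16.4 and 14.9 CPM in uninjured cells. All groups overlapped, with a log2 fold change of -0.24 ± 0.17 (SE; adjusted p = 0.313) for d14 over 48 h. Rpl22 had 87.8, 68.2 and 87.2 CPM at d14, 89.4, 100.6 and 99.8 CPM at 48 h and 85.5, 81.6 and 76.5 CPM in uninjured cells. It was highest in the 48 h libraries. Rpl7l1, a paralog of Rpl7, had 44.6, 47.8 and 41.2 CPM at d14, 56.3, 66.8 and 60.6 CPM at 48 h and 55.1, 57.0 and 60.6 CPM in uninjured cells. Its d14 libraries lay below the others, with -0.37 ± 0.11 (SE; adjusted p = 0.0153) for d14 over uninjured and 0.087 ± 0.11 (SE; adjusted p = 0.594) for 48 h over uninjured, the d14 call being lost without d14 replicate 3 or uninjured replicate 3 and under the same 3 scales, which turned it positive. Rpl7 had 318, 246 and 295 CPM at d14, 312, 330.3 and 347 CPM at 48 h and 257, 266 and 229 CPM in uninjured cells. Its log2 fold change was 0.19 ± 0.12 (SE; adjusted p = 0.234) for d14 over uninjured and -0.20 ± 0.12 (SE; adjusted p = 0.237) for d14 over 48 h, and neither passed.

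**Figure D4:**
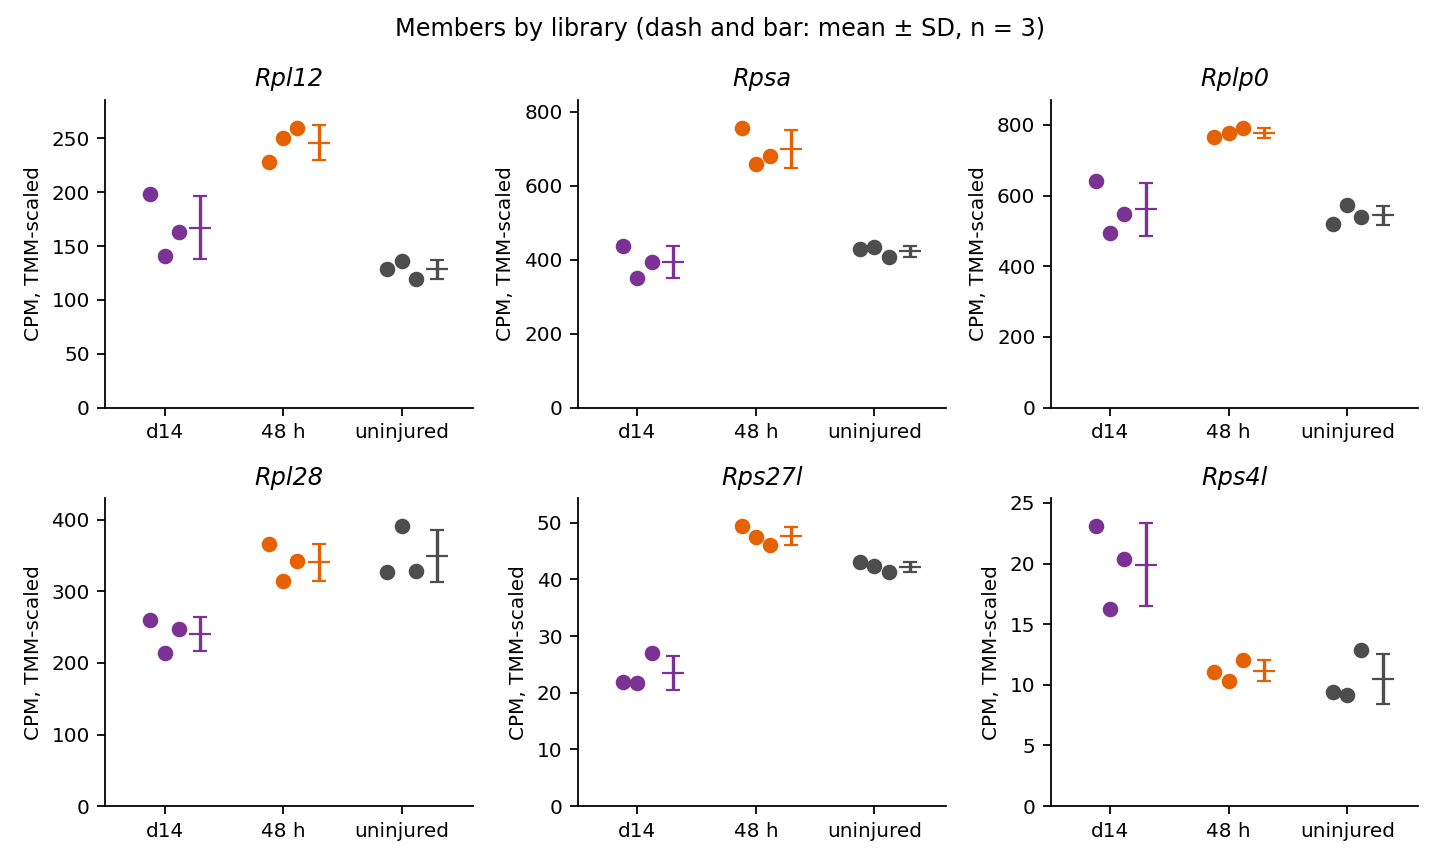
TMM-scaled CPM of 6 members in each library at d14, 48 h and in uninjured cells, with mean ± SD (n = 3) beside the points. Rpl12, Rpsa and Rplp0 are highest at 48 h, Rpl28 and Rps27l are lowest at d14, and Rps4l is highest at d14.

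Fau, a 40S protein made as a fusion with a ubiquitin-like protein, Rpl36al, a relative of Rpl36a, and the 40S scaffold Rack1 were not called at 48 h. Under TMM, Fau and Rpl36al fell by 0.52 and 0.64 on the log2 scale at d14 against uninjured cells. Fau had 118, 93.1 and 106 CPM at d14, 160.2, 150.0 and 145 CPM at 48 h and 146, 169 and 139.8 CPM in uninjured cells. At 48 h against uninjured cells, 3 of 13 elongation and termination factors were higher and 0 lower, 3 of 40 initiation factors were higher and 2 lower, and 4 of 22 other TOP messages were higher and 1 lower. The shares higher were 23.1%, 7.50% and 18.2% for these lists, against 17.4% of all genes. The elongation factor subunits Eef1b2 and Eef1g rose by 0.56 and 0.44 on the log2 scale, Eif6, which keeps free 60S subunits from joining 40S subunits, rose by 0.88, and the translation initiation factor Eif4b fell by 0.59.
At d14 against uninjured cells the counts were 3 higher and 3 lower elongation factors, 2 and 7 initiation factors and 2 and 6 other TOP messages, with 25.1% higher and 20.7% lower among all genes. Here the cap-binding protein Eif4e fell by 0.51 and the RNA-binding protein Hnrnpa1 rose by 0.98. At d14 against 48 h they were 1 and 4, 2 and 5, and 0 and 7 (16.8% and 16.3% of all genes), where the TOP message Tpt1 fell by 0.98. Under library totals, where 47.1% of all genes were higher and 9.14% lower at d14 than in uninjured cells, the counts were 6 higher and 1 lower elongation factors, 22 and 0 initiation factors and 10 and 0 other TOP messages, so that the direction of these lists followed the scale.
Of 66 ribosome assembly factors, 4.55% were higher (3) and 3.03% lower (2) at 48 h than in uninjured cells, against 17.4% and 11.7% of all genes. The higher ones included Nop58 and Nhp2, proteins of small nucleolar ribonucleoproteins, which rose by 0.72 and 0.55. At d14, 4 were higher and 8 lower than in uninjured cells (25.1% and 20.7% of all genes) and 2 higher and 11 lower than at 48 h (16.8% and 16.3%), where Nhp2 fell by 1.13 at d14 against 48 h. Under library totals the d14 counts were 30 higher and 0 lower against uninjured cells and 33 higher and 1 lower against 48 h, near the 47.1% and 43.8% of all genes that were higher on that scale. Of 14 genes of RNA polymerase I and its factors, 0 were called at 48 h against uninjured cells, and 1 was higher and 1 lower at d14. Of 14 host genes of small nucleolar RNAs measured, 0 were higher and 1 lower at 48 h than in uninjured cells, and 1 was higher and 2 lower at d14. The shares of all genes just given apply to both lists.
Of 28 genes of the Myc network and the mTOR pathway, 4 were higher and 8 lower at 48 h than in uninjured cells. At d14, 7 were higher and 6 lower than in uninjured cells. These d14 shares of 25.0% and 21.4% lay near the 25.1% and 20.7% of all genes. At 48 h 14.3% were higher and 28.6% lower, against 17.4% and 11.7%. Under library totals 18 were higher and 1 lower at d14 than in uninjured cells, against 47.1% and 9.14% of all genes. The mTORC1 inhibitor Ddit4 was higher by 3.88 at d14 and 2.14 at 48 h on the log2 scale than in uninjured cells, and Mtor itself fell by 1.25 at d14. The polyubiquitin gene Ubb fell by 0.40 at d14 against uninjured cells under TMM and was not called at 48 h.

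The mitochondrial ribosome, whose proteins are also encoded in the nucleus, is a separate machine that translates the messages of the mitochondrial genome. Its 78 genes (Mrpl and Mrps symbols) summed to 1860 to 2030 CPM at d14, 2660 to 2810 CPM at 48 h and 2700 to 2940 CPM in uninjured cells. The d14 libraries lay below all others, and 48 h and uninjured libraries overlapped. At 48 h against uninjured cells 5 were higher and 6 lower (6.41% and 7.69%, against 17.4% and 11.7% of all genes) with a median of -0.037. At d14 against uninjured cells 1 was higher and 55 lower (1.28% and 70.5%, against 25.1% and 20.7% of all genes) with a median of -0.51. At d14 against 48 h 1 was higher and 49 lower (1.28% and 62.8%, against 16.8% and 16.3%) with a median of -0.49. Under library totals the d14 medians were 0.052 against uninjured cells and 0.087 against 48 h, with 11 higher and 5 lower (47.1% and 9.14% of all genes) and 10 higher and 4 lower (43.8% and 6.02%). Of the 15 tested genes of the mitochondrial genome, 14 were called lower at d14 than at 48 h under TMM (16.3% of all genes). Under library totals 13 were called lower (6.02%).

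**Figure D5:**
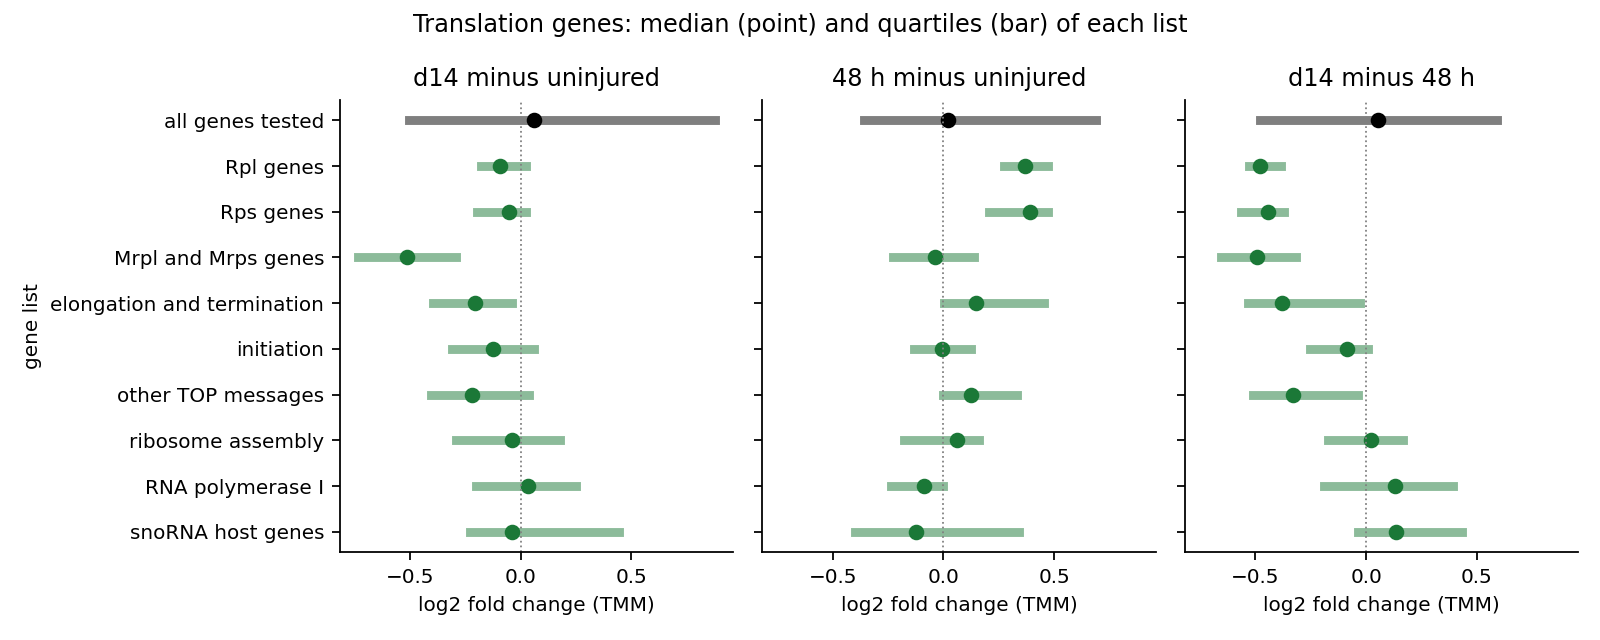
Median log2 fold change (point) and quartiles (bar) of gene lists of translation in the 3 comparisons after TMM scaling. The Rpl and Rps genes lie to the right of the other lists at 48 h against uninjured cells (medians of 0.37 and 0.39), and the mitochondrial ribosomal genes lie furthest left at d14 against uninjured cells (-0.51).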

How the data were processed

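Strand-specific libraries were made from up to 30 ng of RNA per sample, per the labels' protocols. The authors deposited a table of expected counts per gene, which per the submitters' processing notes rests on STAR 2.6.1 and RSEM 1.2.28, with mm10 as the mouse build. RSEM divides reads that match several places, so members with near-identical pseudogene copies have uncertain counts. Expected counts were rounded to whole numbers, genes were kept with filterByExpr (minimum count 10, minimum total 15), and 15519 genes entered a single fit of all 9 libraries with TMM factors in edgeR 4.0.16 (limma 3.58.1, R 4.3.3). Quasi-likelihood F-tests gave 3 comparisons, with Benjamini-Hochberg adjustment over all genes tested and calls at an adjusted p under 0.05. All adjusted p-values in the text come from this edgeR test. CPM values are scaled by TMM. A second fit took the summed members as library size. DESeq2 1.42.0, limma voom, other scales and the removal of each library were alternatives, and the pipeline was tested on simulated data. Shares carry exact Clopper-Pearson intervals, which cover counting error only. The replicate numbers did not pair the libraries.

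Members and lists were chosen with earlier results of these data known. Values in all libraries are given for the 5 largest and 5 smallest changes of each comparison, the 5 members with the most counts per kilobase, paralogs with their partners and members with set roles. Of each other list, named genes come from the called ones with the smallest p. A few genes that these rules would name are not reported here.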

Additional observations from a re-analysis of the deposited data

Results flagged for a closer look

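Under TMM the change of the ribosomal protein genes against uninjured cells differed between d14 and 48 h. The direct test of d14 against 48 h gave 68 members lower and 1 higher (16.3% and 16.8% of all genes tested). Under library totals the same test gave 1 lower and 2 higher (6.02% and 43.8%). Relative to the summed members, the scale of the libraries does not move the log2 differences. Their p-values were still adjusted over all genes tested, of which 39.7% were higher and 6.09% lower at d14 than at 48 h. There the log2 difference between d14 and 48 h passed for 4 members. It was -0.53 for Rps27l and 1.30 for Rps4l, both called under all 13 alternatives. It was -0.35 for Rpsa and 0.33 for Rps27, each called under 1 of 13 alternatives.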

How the results depend on the processing

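Calls and medians are given here as d14 against uninjured, 48 h against uninjured and d14 against 48 h. Library totals gave 58 higher and 0 lower with a median of 0.48, 22 higher with a median of 0.37 (0.38 under TMM), and 2 higher and 1 lower with a median of 0.11. The d14 values against uninjured then turned positive for Rps25 (0.026), Rpl28 (0.034), Rpl10 (0.068), Rpl35a (0.18), Rpsa (0.47), Rpl7l1 (0.20) and Rps2 (0.21), and those against 48 h for Rpl12 (0.031) and Rps27 (0.42). Totals without mitochondrially encoded genes gave 47 higher and 1 lower with a median of 0.36, a median of 0.585 at 48 h, and 11 lower with a median of -0.22, with Rpl35a at 0.068, Rpsa at 0.35, Rpl7l1 at 0.083 and Rps2 at 0.095 at d14 against uninjured. The mitochondrial ribosomal scale gave 59 higher and 1 lower with a median of 0.40, and 2 higher and 3 lower with a median of 0.004, with Rpl35a at 0.10, Rpsa at 0.38, Rpl7l1 at 0.12 and Rps2 at 0.13 against uninjured and Rps27 at 0.32 against 48 h. TMM factors without both the members and the mitochondrially encoded genes, and no filter, each left 1 higher at d14 against uninjured (23.6% and 14.3% of all genes). The cause was not tested. With a replicate block the counts were 1 higher and 7 lower (23.2% and 19.4% of all genes), 33 higher (14.7%), and 1 higher and 57 lower (14.7% and 13.7%). Relative to the summed members the block gave 1 lower at 48 h (28.8%) and 1 higher and 1 lower at d14 against 48 h (36.7% and 5.1%). Same-numbered libraries had correlations of -0.161 to 0.0494, so they were not treated as pairs. Without d14 replicate 2 and 48 h replicate 3 together, chosen after seeing the data, 5 were lower (17.1% of all genes), 27 higher (11.3%), and 23 lower (11%) with a median of -0.37. Relative to the summed members this removal gave 2 lower (15.6%), 1 lower (23.6%), and 1 higher and 1 lower (24.5% and 5.72%). Relative to the members' geometric mean 2 were higher at 48 h (12.7% of all genes) and 1 at d14 against 48 h (38.5%), and fitting only the 2 groups gave 1 higher and 1 lower there (37.4% and 4.98%). Leaving out each library in turn gave 1 to 2 higher and 5 to 11 lower with medians of -0.152 to -0.004, 20 to 47 higher and 0 lower with medians of 0.332 to 0.388, and 1 higher and 37 to 70 lower with medians of -0.537 to -0.393. Of all genes, 19.9% to 26.9% were then higher and 16% to 21.6% lower, 12.3% to 17.2% and 7.1% to 12.1%, and 11% to 15.3% and 11.2% to 16.1%. Relative to the summed members, leaving out each library gave 2 to 3 higher and 2 to 5 lower, 1 to 2 and 1 to 3, and 1 to 2 higher and 1 lower. The shares of all genes were 21% to 28.6% and 12% to 16.5%, 9.59% to 12.6% and 21.8% to 30.6%, and 29.2% to 37.4% and 4.08% to 6.15%. Mean shares of counts were 1.75% to 2.15% at d14, 1.79% to 1.88% at 48 h and 1.39% to 1.49% in uninjured cells with each library left out, and 2.51%, 2.93% and 1.96% outside mitochondrially encoded genes. The shallowest library, 48 h replicate 2 with 8036054 counts, limits the precision of the least abundant members.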
